A study of Yarrowia lipolytica with 8 samples.

Results

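The genes described here had more mRNA after glycerol limitation than before it in both dual substrate cultures of *Yarrowia lipolytica*, with and without control of the dissolved oxygen (pO2). They were selected on the measured values themselves. A gene was a member if its lowest FPKM (mapped fragments scaled by gene length and by the total of the library) of the 4 libraries taken after limitation was at least 10, and also at least 3 times the highest FPKM of the 4 libraries taken before limitation plus 1. This gave 84 of 6394 genes, all of them listed in both deposited tables, out of 5288 genes that reached an FPKM of 10 in all 4 libraries after limitation. That the members rose is therefore how they were chosen and is given as a description with no test. The comparisons tested below are those between the cultures. A gene passed the call of a test where limma's Benjamini-Hochberg adjusted p was under 0.05 and the log2 difference was at least 2 in size.

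The strain in every library was ACA DC 50109, grown in bioreactors on a medium poor in nitrogen that held both glucose and glycerol. RNA was sequenced in 4 groups with 2 libraries each. The 2 groups from the culture with controlled pO2 are its phases 1 and 2, here called controlled before and controlled after. The 2 groups from the culture with uncontrolled pO2 are its phases 2 and 3, here called uncontrolled before and uncontrolled after. The labels number the samples but do not tie them to glycerol, so which came before and which after limitation was taken from the study's text and supplement. The study names the replicates biological, but the labels do not say that they came from separate fermentations, so the p-values measure only the spread between these samples, which may be technical. Before and after also differ in the time of sampling and the growth phase, and these cannot be told apart from the loss of glycerol.

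*Y. lipolytica* is an oleaginous yeast that stores lipid and excretes citric acid when nitrogen runs short and carbon stays in excess. It grows well on glycerol and can take it up together with glucose. Yeasts that lose a preferred nutrient are known to raise transporters and enzymes for other carbon, nitrogen and phosphorus sources and to change the machinery of translation. In bulk RNA, fewer cells of a state and less RNA per cell cannot be told apart.

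The libraries held 5040000 to 5300000 fragments each, as read from the steps between their lowest FPKM values. The number of genes that reached an FPKM of 1 was 5901 to 6201 by library, and the 10 highest genes took 5.8% to 9.1% of the summed FPKM. Scaling factors by the median of ratios ran from 0.797 in an uncontrolled library before limitation to 1.165 in a controlled library after it, so the groups differ in scale. With these factors in place of the FPKM as deposited, 67 genes met the selection rule and 66 of them were among the 84. Across the members, the higher replicate was a median of 1.03 times the lower one in controlled after, 1.1 times in controlled before, 1.17 times in uncontrolled after and 1.45 times in uncontrolled before. The uncontrolled libraries taken before limitation were thus the least alike, and 9 members had no more than 3 fragments there in either replicate, against 1 member in controlled before. No fold of means is given against such values, and a log2 difference against them depends on the 1 added to the FPKM, so that it is neither an exact size nor a bound. A log2 difference against other FPKM values under 1 also depends on the 1 added.

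The lowest FPKM after limitation ran from 11.26 to 5081 over the members, with a median of 85.3. Their highest FPKM before limitation ran from 0.98 to 1635, with a median of 10.3. The ratio of these values, with 1 added below, had a median of 4.68 and reached 83.1. It was at least 10 in 20 members and under 5 in 46 members, so most of the list lies nearer to the minimum of 3 than to its top. On the log2(FPKM + 1) scale the rise of the members ran from 1.70 to 7.94 with pO2 control, with a median of 3.33, and from 1.63 to 9.27 without it, with a median of 4.06. Over all genes tested the median rise was 0.13 and 0.49.

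**Figure D1:**
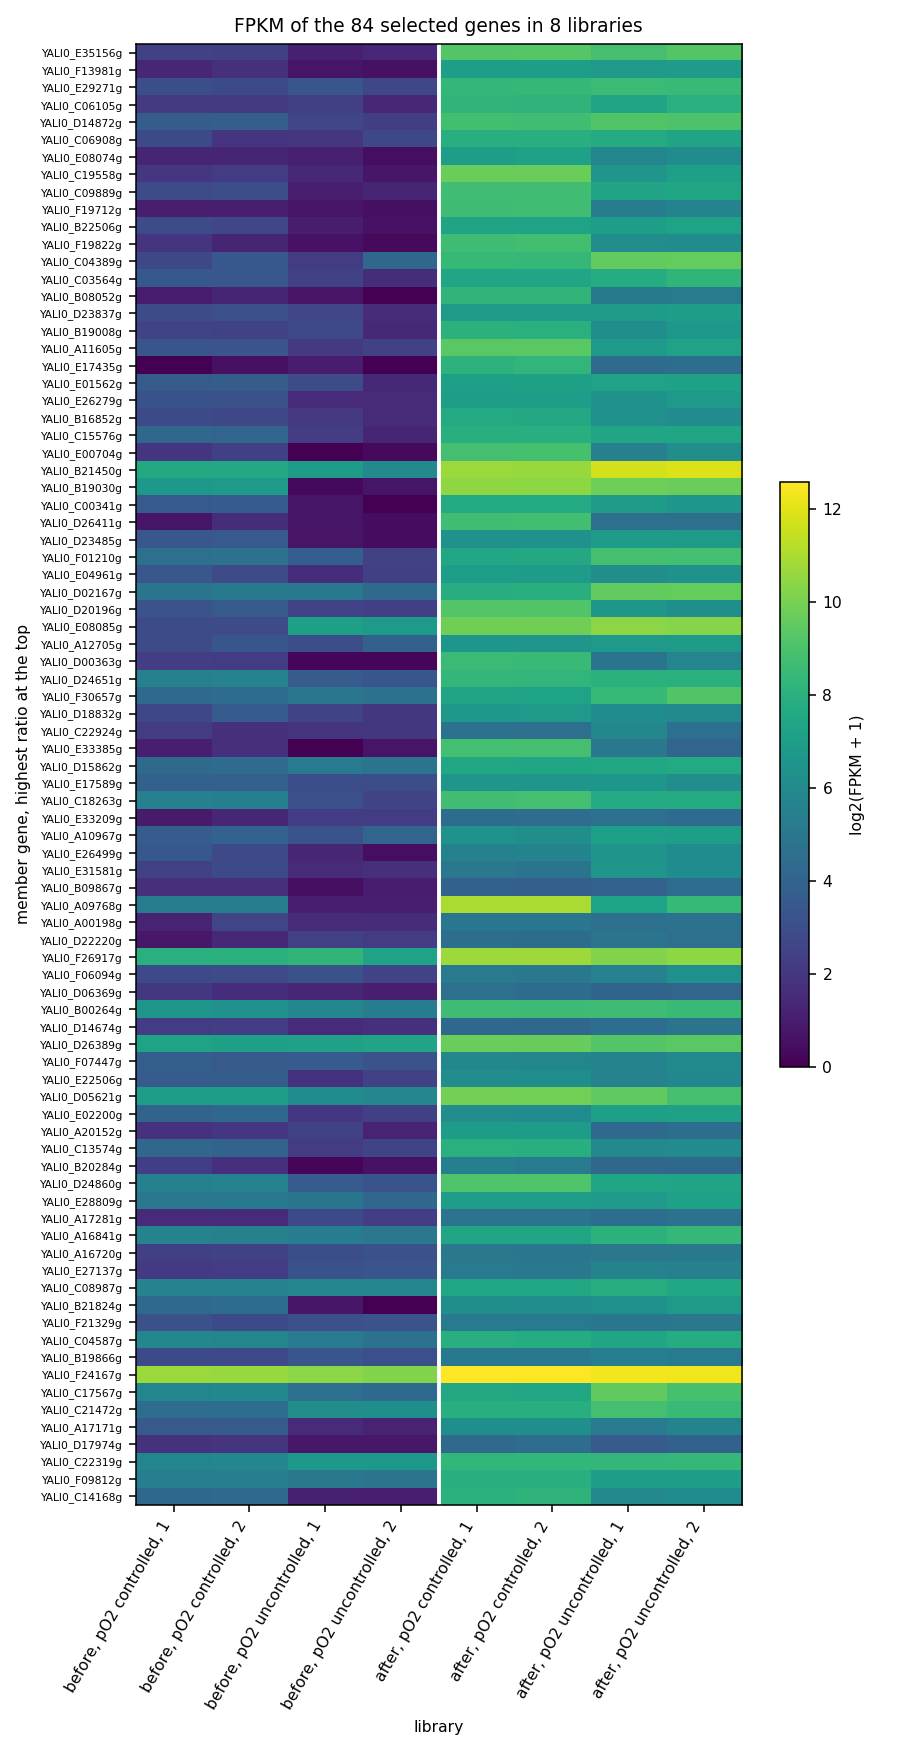
Heat map of the 84 members (rows, highest ratio at the top) in the 8 libraries (columns, those before limitation on the left of the white line). Colour gives log2(FPKM + 1). The split between the left and the right side is the selection rule itself. What the rule did not fix is the order of the cultures on either side, where members such as YALI0_B19030g and YALI0_A09768g are dark in the uncontrolled libraries before limitation and others, such as YALI0_E08085g, are bright there.

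At the edge of the rule, YALI0_C14168g, YALI0_F09812g and YALI0_C22319g were just inside with ratios of 3.01, 3.02 and 3.02. YALI0_B04004g, YALI0_F10175g and YALI0_F31537g were just outside with ratios of 2.99, 2.99 and 2.98. The rule thus cuts through a continuous range of ratios. Another 7 genes passed the ratio but stayed under an FPKM of 10, of which YALI0_C03542g had the largest ratio at 5.76 with a lowest FPKM after limitation of 7.72.

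YALI0_F24167g (chromosome F, 3158395 to 3159450 of the CLIB122 assembly) had the highest level of all members. It is annotated as sporulation-specific protein 4, a protein known in *Saccharomyces cerevisiae* from genes switched on during sporulation. Its FPKM was 1634.5 and 1612 in controlled before and 6111 and 6133 in controlled after, 1325 and 1160.2 in uncontrolled before and 5213 and 5081 in uncontrolled after. It was thus abundant in every library, and its mean rose 3.77-fold with and 4.14-fold without pO2 control. No other gene of the meiosis, mating and sporulation list was a member, and of its 13 other genes tested 1 fell past the call, without pO2 control.

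Next in level came genes for which the files give no function. YALI0_B21450g, a short gene of 444 bases, had 198 and 191 before and 1675 and 1589 after with pO2 control, and 119.6 and 62.1 before and 3386 and 3837 after without it. YALI0_F26917g had 249 and 255 before and 1707 and 1701 after with pO2 control, and 304 and 150.2 before and 1154.5 and 1386 after without it. The first was higher in the uncontrolled and the second in the controlled libraries after limitation, and in neither did the replicates of the cultures overlap there. Such a lack of overlap was common, at 33.8% of all genes tested for the first direction and 45.8% for the second. YALI0_D26389g (824 and 800.0 in controlled after and 591 and 648 in uncontrolled after) and YALI0_C04389g (340.0 and 334 and 746 and 792) are likewise without annotation. Before limitation YALI0_C04389g was at 5.6 and 9.79 with pO2 control and 3.62 and 17.9 without it, so its uncontrolled replicates lay farther apart there than its controlled ones.

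**Figure D2:**
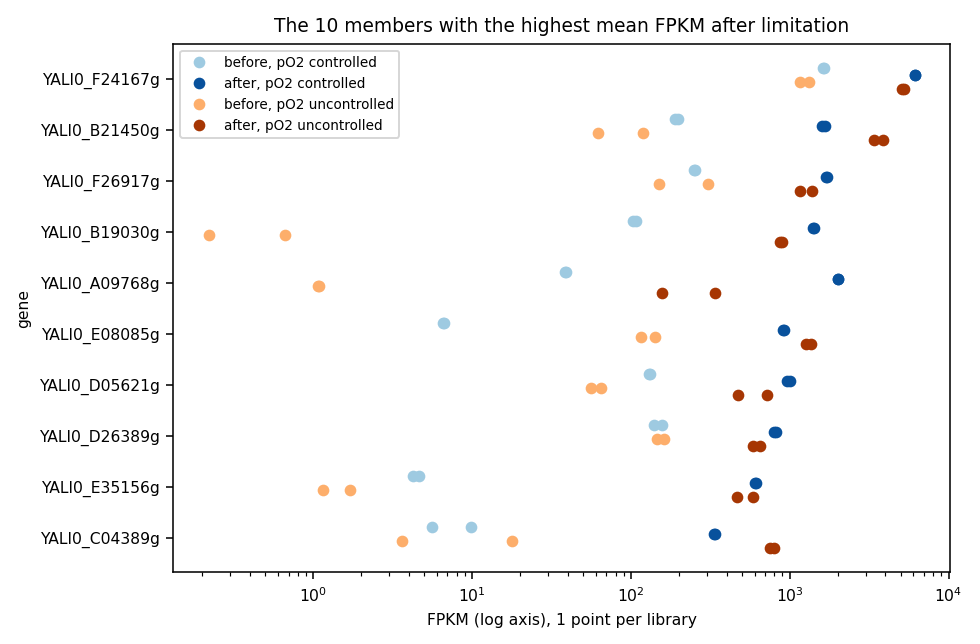
FPKM on a log axis of the 10 members with the highest mean after limitation, 1 point per library, in 4 groups of 2 libraries. Each gene's dark points lie to the right of its light points by the selection rule. YALI0_F24167g lies highest at 5081 to 6133 after limitation, and YALI0_B19030g spans the widest range, from 0.22 to 1429.

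The largest ratio of the list belonged to YALI0_E35156g (chromosome E, 4201039 to 4206675), which has neither a KEGG nor a GO annotation nor a Blast name. It had 4.63 and 4.23 before and 602 and 616 after with pO2 control, and 1.15 and 1.71 before and 468 and 587 after without it. Its mean rose 137-fold and 369-fold, and after limitation the uncontrolled libraries lay just below the controlled ones. YALI0_C06908g, also unannotated, went from 6.16 and 2.85 to 237 and 237 with pO2 control and from 3.01 and 5.52 to 213 and 162 without it. YALI0_E29271g, annotated by GO as a DNA-binding transcription factor, had 7.19 and 6.02 before and 326 and 333 after in the controlled culture, and 9.36 and 5.61 before and 381 and 361 after in the uncontrolled culture. This regulator reached nearly the same levels in both cultures, with folds of 49.9 and 49.5.

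Genes with no annotation made up much of the list. A KEGG Orthology number was given for 45 of the 84 members (53.6%), against 62.4% of all genes and 66.2% of those with an FPKM of at least 10 in all libraries after limitation. For 20 members (23.8%) the best KEGG match was an entry of *Y. lipolytica*, against 40.8% of all genes. Neither a KEGG number nor a GO term was given for 34 members (40.5%), against 27.6% of all genes. The Blast field gave 81 members a *Y. lipolytica* name that only repeats the locus tag. The GO term for an intrinsic component of the membrane was carried by 15 members (17.9%), against 8.37% of all genes. These shares are descriptions, with no test.

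Several annotated members carried the names of membrane transporters. YALI0_C06105g (chromosome C, 789911 to 791800), of the family that imports siderophores, the iron chelates of fungi, had 3.46 and 3.34 before and 295 and 294 after with pO2 control. Without pO2 control it had 4.25 and 1.68 before and 163 and 256 after. YALI0_C09889g (chromosome C, 1354318 to 1356165), an amino acid permease of the AAT family, went from 6.35 and 7.24 to 415 and 418 with pO2 control and from 1.09 and 1.5 to 161 and 176 without it. For the siderophore family gene the folds were 86.5 and 70.7, and for the permease 61.3 and 130.0, with the permease lower in the uncontrolled than in the controlled libraries on both sides of limitation. YALI0_D23485g, of the POT family that brings in short peptides together with protons, had 9.74 and 10.3 before and 84.1 and 86.7 after with pO2 control and 0.58 and 0.34 before and 124 and 116 after without it. It was the reverse case, starting lower and ending higher without pO2 control.

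YALI0_D05621g, of the NCS1 family that carries nucleobases and related compounds, was the most abundant transporter of the list. Its FPKM was 130.4 and 132 before and 1000.2 and 956 after with pO2 control, and 65.2 and 56 before and 719 and 473 after without it. YALI0_C13574g, of the family named for the allantoate permease of *S. cerevisiae*, had 17.1 and 15.01 before and 251 and 247 after with pO2 control, and 3.67 and 4.84 before and 61.9 and 66.1 after without it. Both rose by similar folds in the cultures, 7.46 and 9.83 for the first and 15.5 and 15 for the second. YALI0_B19008g, a putative metabolite and proton symporter, went from 5.08 and 4.45 to 268 and 257 with pO2 control and from 5.94 and 1.75 to 75.8 and 103 without it. YALI0_D00363g, of the sugar and proton symporter family, went from 3.93 and 3.79 to 375 and 366 with pO2 control and from 0.12 and 0.12 to 27.5 and 51.5 without it, where the earlier values are under 3 fragments. These symporters ended lower without pO2 control, with no overlap of the replicates, as did 45.8% of all genes tested. YALI0_A17171g, an ABC transporter of the multidrug subfamily, went from 10.6 and 10.9 to 75.7 and 76.9 with pO2 control and from 1.83 and 1.39 to 36.1 and 49.7 without it. The ABC transporter was near the low end of the rule, with a ratio of 3.04.

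YALI0_F01210g (chromosome F, 198167 to 199021), an aquaporin, belongs to the channels that pass water or small uncharged molecules such as glycerol. Its FPKM was 23.7 and 25.9 before and 182 and 195 after with pO2 control, and 12.6 and 4.57 before and 475 and 459 after without it. YALI0_F19712g (chromosome F, 2621456 to 2622626), an ADP/ATP carrier of the inner mitochondrial membrane, had 1.05 and 1.05 before and 408 and 417 after with pO2 control, and 0.66 and 0.44 before and 39.7 and 50.3 after without it. The aquaporin ended higher in the uncontrolled and the carrier higher in the controlled culture, in both cases with no overlap of the replicates. Over all genes tested, 33.8% and 45.8% lay apart in these directions.

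In 4 members, YALI0_A11605g, YALI0_D17974g, YALI0_D24651g and YALI0_F13981g, the KEGG number was K08856, named serine/threonine kinase 16. The best match of all 4 was the same *Aspergillus* entry, and all 4 carried the GO term for the membrane and no kinase term. Of the 15 genes with this number, 14 had the membrane term and 1 the kinase term, so the KEGG name and the GO term do not point to the same kind of protein. YALI0_F13981g (chromosome F, 1888485 to 1890080) went from 1.57 and 2.29 to 133 and 132 with pO2 control and from 0.63 and 0.5 to 111 and 123 without it. YALI0_A11605g went from 9.02 and 9.09 to 663 and 659.8 with pO2 control and from 3.39 and 4.6 to 108 and 149.7 without it. YALI0_D24651g went from 43.6 and 46.9 to 325 and 311 and from 11.2 and 9.17 to 258 and 254. Of these, YALI0_A11605g lay farthest apart between the cultures after limitation, while the others ended closer. The least abundant of the 4, YALI0_D17974g, ended at 19.6 and 21.3 with and 11.3 and 14.2 without pO2 control. YALI0_D20196g carries the KEGG name of the DNA repair protein RAD50 but the GO term for the membrane as well, and went from 8.25 and 10.8 to 591 and 565 with and from 5.05 and 4.21 to 99.4 and 76.8 without pO2 control.

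Among the enzymes, YALI0_A09768g (chromosome A, 978999 to 979952) stood highest. It is the thiamine biosynthetic enzyme that makes the thiazole moiety of vitamin B1, whose diphosphate is the cofactor of pyruvate dehydrogenase and transketolase. Its FPKM was 38.5 and 39.1 before and 2008 and 2020.3 after with pO2 control, and 1.08 and 1.07 before and 157 and 339 after without it. The fold was 51.9 with and 231 without pO2 control, the uncontrolled libraries being lower on both sides and apart from each other after limitation. YALI0_B22506g (chromosome B, 2962213 to 2963313), a formate dehydrogenase, which oxidises formate to carbon dioxide, had 6.23 and 5.49 before and 161 and 156 after with pO2 control, and 0.93 and 0.55 before and 129 and 154 after without it. Its levels after limitation were close in the cultures, with all 4 values between 129 and 161.

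YALI0_B21824g and YALI0_B08052g are named by KEGG only for classes of oxidoreductases, EC 1.14 for the first and EC 1 for the second. YALI0_B21824g, which carries the GO term for tetrapyrrole (haem-like) binding, had 19.2 and 21.1 before and 76.5 and 70.8 after with pO2 control, and 0.71 and 0 before and 77.5 and 112 after without it. YALI0_B08052g had 0.94 and 1.5 before and 303 and 305 after with pO2 control, and 0.59 and 0 before and 32.6 and 35.05 after without it. The first was nearly silent only in uncontrolled before, while the second was low in all 4 libraries before limitation. YALI0_C22319g, which matches a complex I subunit of the NDUFA9 type, went from 52.9 and 55.05 to 319 and 318 with pO2 control and from 104 and 104 to 318 and 331 without it. It ended at nearly the same level in all 4 libraries.

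A few members matched phosphatases or a lipid-cleaving enzyme. YALI0_D02167g, matching alkaline phosphatase D, a phosphodiesterase and phosphatase family known from bacteria, went from 27.4 and 33.04 to 226 and 233 with pO2 control and from 32.8 and 18.6 to 763 and 767 without it. YALI0_E31581g, matching sphingomyelin phosphodiesterase, went from 4.46 and 5.94 to 30.3 and 27.8 with pO2 control and from 1.9 and 2.2 to 92.6 and 68.9 without it. Both ended higher without pO2 control. YALI0_D24860g, which matches an acid phosphatase weakly and carries a GO term for a transcription regulator, went from 44.98 and 46.5 to 554 and 563 with pO2 control and from 11.3 and 8.62 to 171 and 159 without it, ending higher with pO2 control.

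Other members matched proteins that act on RNA or in translation, some of them only weakly and by entries of other species. YALI0_D22220g and YALI0_E33209g match the wybutosine-synthesizing proteins 3 and 4, which take part in building the modified base beside the anticodon of phenylalanine tRNA. YALI0_D22220g had 0.75 and 1.75 before and 22.7 and 20.8 after with pO2 control, and 4.47 and 3.64 before and 27.5 and 24.2 after without it. YALI0_E33209g had 0.9 and 1.53 before and 21.1 and 21.2 after with pO2 control, and 3.68 and 3.57 before and 23.98 and 19.9 after without it. These enzymes of the same pathway had nearly the same level in each library, lowest in controlled before. YALI0_E27137g, the tRNA methyltransferase TRM13, went from 3.34 and 3.73 to 36.9 and 32.4 and from 7.85 and 8.91 to 47.8 and 43.8, and was also lowest in controlled before.

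YALI0_A20152g (chromosome A, 2167629 to 2170157) matches elongation factor 2, the GTPase that moves the ribosome along the mRNA. It went from 2.41 and 2.93 to 118 and 118 with pO2 control and from 4.33 and 1.4 to 18.4 and 22.1 without it. YALI0_C21472g, an ATP-dependent RNA helicase, which unwinds RNA, went from 21.7 and 22.03 to 232 and 238 with and from 72.5 and 75.3 to 448 and 365 without pO2 control. YALI0_E08074g, a match to the scavenger decapping enzyme DcpS that clears cap fragments left by mRNA decay, went from 1.5 and 1.49 to 127 and 147 with and from 1.18 and 0.39 to 53.6 and 68.4 without it. These did not share an order of the cultures, the factor and the decapping match ending higher with and the helicase higher without pO2 control. YALI0_C19558g, a match to poly(rC)-binding proteins that bind RNA, went from 3.03 and 3.68 to 851 and 866 with and from 1.76 and 0.7 to 92.96 and 135 without pO2 control. Also of this kind were YALI0_F07447g, the RNase P subunit POP3 (3.59 as its ratio), YALI0_F21329g, a ribosome biogenesis ATPase (3.2), YALI0_A12705g, a ribonuclease HI (6.37), and YALI0_B09867g, a nucleolin match (3.99).

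Several members were annotated as regulators, chaperones or a GTPase. YALI0_D14872g, which GO places among sequence-specific transcription factors although its KEGG name is prolyl 4-hydroxylase, had 11.9 and 12.97 before and 436 and 428 after with pO2 control, and 5.29 and 4.02 before and 564 and 538 after without it. YALI0_A16841g, a weak match to the cell cycle regulator SWI5, went from 48.8 and 43.3 to 168 and 165 with and from 39.2 and 30.7 to 269 and 331 without pO2 control. YALI0_C08987g, a match to stress-induced phosphoprotein 1, the co-chaperone that joins Hsp70 and Hsp90, went from 47.6 and 46.1 to 187 and 186 with and from 54.7 and 52.98 to 226 and 179 without it. The co-chaperone rose by similar folds in the cultures, 3.98-fold and 3.77-fold. YALI0_E28809g, a DnaJ co-chaperone, ended at 129 and 126 with and 113 and 148 without pO2 control, with folds of 3.94 and 5.71. YALI0_C14168g, a Rab GTPase of vesicle traffic, went from 17.8 and 18.7 to 263 and 289 with and from 1.12 and 1.11 to 59.3 and 68.9 without pO2 control, the cultures lying apart on both sides.

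Most annotated members had relatives with the same KEGG number that did not join the list. At a KEGG e-value of at most 1e-10, the members carried 41 different numbers. Of these, 31 were shared with other genes, 202 in all, and only K08856 held more than 1 member. The genes named in this paragraph and the next were chosen after their values were seen, and each limitation test below is of non-members only. YALI0_A00352g, the other elongation factor 2 gene, was far more abundant at 404 and 409.9 before and 2684 and 2679 after with pO2 control and 839.7 and 962 before and 1604 and 1632 after without it. Its log2 difference, after minus before, was 2.72 (SE 0.02, adjusted p = 1.6e-08) with pO2 control, which passed the call, and 0.85 (SE 0.13, adjusted p = 0.0009) without it, which was short of the minimum of 2. The other ADP/ATP carriers, YALI0_A10659g and YALI0_D08228g, had lowest FPKM values of 569 and 915 over the 8 libraries, and neither passed the call in either culture. Member YALI0_F19712g was thus the carrier that was nearly silent before limitation.

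Of the 10 other formate dehydrogenase genes, 1 rose and 1 fell past the call with pO2 control among 8 tested, and 1 rose without it among 9 tested. The highest FPKM of these 10 genes in any library was 40.9, while the lowest of YALI0_B22506g after limitation was 129. In the siderophore transporter family, 12 other genes included 1, YALI0_F19118g, that rose in both cultures, from 0.49 and 0.69 to 8.49 and 8.28 with pO2 control and from 0.93 and 0.92 to 9.44 and 9.31 without it. It had passed the ratio of the rule with 4.29 and missed only the level of 10. In the alkaline phosphatase D family, YALI0_F08129g rose with pO2 control from 4.04 and 4.59 to 267 and 266, and was at 5.63 and 4.77 before and 12.01 and 11.04 after without it, the opposite leaning to member YALI0_D02167g. The allantoate permease family held a pair of other genes that rose in both cultures without reaching the ratio. YALI0_D13970g had log2 differences of 2.32 (SE 0.09, adjusted p = 2.2e-06) with and 3.05 (SE 0.29, adjusted p = 0.0001) without pO2 control, and YALI0_F16423g had log2 differences of 4.17 (SE 0.05, adjusted p = 2.3e-08) and 5.58 (SE 0.31, adjusted p = 8.7e-06). Before limitation without pO2 control the first had 0.27 and 0.53 and the second 0.96 and 0.81. The sizes without pO2 control thus depend on the 1 added to the FPKM. In the peptide transporter family, YALI0_D19558g fell with pO2 control, by 2.43 (SE 0.03, adjusted p = 3.7e-08) on the log2 scale. YALI0_E04510g of the same family rose without pO2 control, with a log2 difference of 4.37 (SE 0.18, adjusted p = 3.7e-06), and none of the 6 other genes rose past the call in both cultures.

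**Figure D3:**
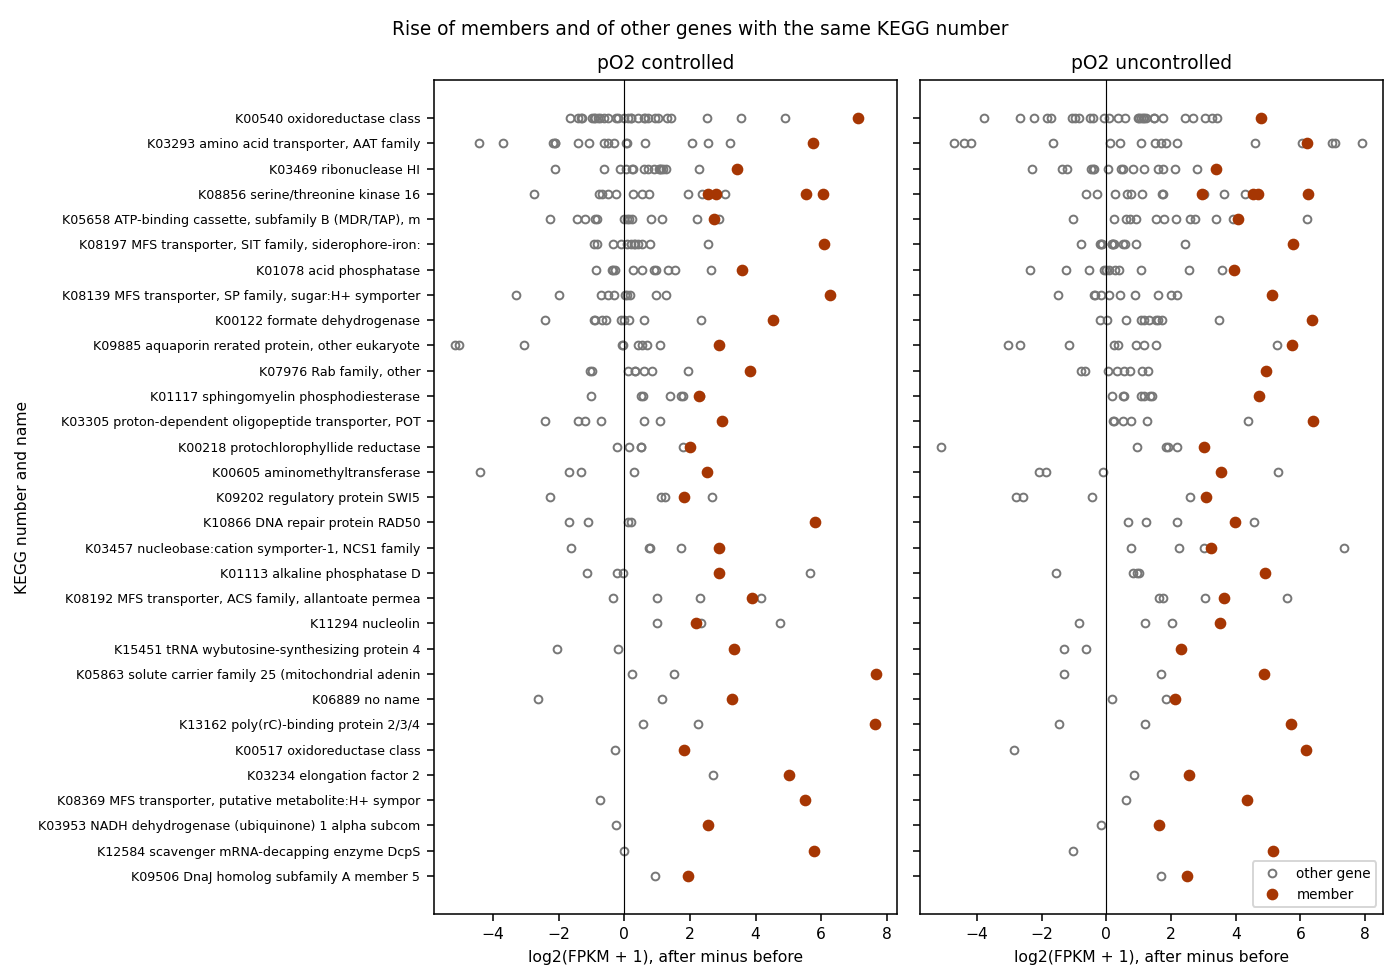
Change of log2(FPKM + 1) after against before limitation for the members (filled) and for all other genes with the same KEGG number (open), in the 31 KEGG numbers held by more than 1 gene, with pO2 control on the left and without it on the right. Members lie to the right by selection. Open points spread on both sides of 0 in most families, and in K03293 the amino acid permeases span from -4.41 to 3.22 with pO2 control apart from the member.

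Lists of pathways and families were drawn up from the KEGG names and GO terms. Of the 84 members, 13 fell into any of the 25 lists, 3 of them into transcription regulators and no more than 1 into any other list. The share of all genes that fell into any list was not counted, so the 13 cannot be called few or many. Over all genes tested, 9.52% rose and 4.29% fell past the call with pO2 control, and 11.3% rose and 5.01% fell without it. Among genes other than the member, 3 amino acid permeases rose and 5 fell of 20 tested with pO2 control, and 6 rose and 3 fell of 20 without it. For the ABC and drug transporters the counts were 5 up and 3 down of 38 with pO2 control and 12 up and 1 down of 36 without it. Chaperones had 6 up and 1 down of 42 with pO2 control, and 1 up and 3 down of 42 without it.

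The lists that moved most in a single culture held no member. That is not read as a result, because the members are 84 of 6394 genes and the rule asks for a rise in both cultures. Of 94 ribosomal protein genes, 77 rose and 1 fell past the call with pO2 control, with a median log2 difference of 2.84, and none passed limma's call without it, where the median was 0.82 and 81 genes were higher and 7 lower at an unadjusted p under 0.05. Of the 28 genes of fatty acid beta-oxidation, 2 rose and 1 fell with pO2 control, with a median of 0.44, while 16 rose without it, with a median of 2.47. For the breakdown of branched-chain amino acids, 3 fell of 13 with pO2 control and 9 rose of 13 without it, and the medians were -1.27 and 3.60. The list of peroxins, which took every KEGG name with peroxin or peroxisomal and so also holds enzymes such as the dienoyl-CoA reductase YALI0_C03003g, had 4 up and 1 down of 40 with pO2 control and 15 up of 37 without it. With pO2 control, YALI0_A09383g and YALI0_C08569g were among those up and YALI0_E20471g was the one down. All of them have the KEGG name peroxin-3, while the study gives YALI0_C08569g among allantoate permeases, so that name is doubtful. Whether these lists differed between the cultures was not tested here.

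The other lists were given the same count, members left out. Without pO2 control, genes that rose past the call numbered 18 of 99 transcription regulators, 9 of 35 mitochondrial carriers, 4 of 14 sugar transporters, 4 of 9 genes of glyoxylate and acetate use, 3 of 12 in the allantoate and vitamin transporter family, 3 of 11 monocarboxylate transporters and 1 of 6 peptide transporters. With pO2 control there were 3 up and 2 down of 99 regulators, 2 up of 35 carriers, 2 down of 15 sugar transporters, 2 up of 12 in the allantoate family, 1 up and 1 down of 12 monocarboxylate transporters and 1 down of 6 peptide transporters. For nitrogen scavenging, 4 rose and 3 fell of 36 with pO2 control and 10 rose and 3 fell of 34 without it. Alcohol and aldehyde dehydrogenases had 4 up and 5 down of 27 with pO2 control and 8 up and 1 down of 28 without it. Peptidases had 8 up and 12 down of 99 and then 11 up and 4 down of 98, and lipases 3 up and 2 down of 40 and then 7 up and 2 down of 39. For the cell wall and surface 2 rose and 7 fell of 69 with and 4 rose and 3 fell of 66 without pO2 control, and for antioxidant enzymes 3 rose and 2 fell and then 5 rose and 4 fell of 45. Metal uptake had 4 up and 1 down of 45 with and 2 up and 5 down of 43 without pO2 control. That list took KEGG names with words for metals, and 1 of the genes that rose with pO2 control, YALI0_C05599g, is named for a metalloprotease and not for uptake. The P450 search matched 1 gene, YALI0_B05126g, named for the sterol demethylase family, which fell in both cultures. Genes of that kind under other KEGG names were not counted. Whether any of these counts differ from the shares over all genes was not tested.

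The members lay on all 6 chromosomes, from 10 on chromosome A to 18 on chromosome E. Chromosome C held 20.2% of the members and 14.5% of all genes, and chromosome F 13.1% and 20.6%. The median span was 1176 bases, against 1248 bases over all genes, and 5 members (5.95%) lay within 50000 bases of the outermost listed genes of a chromosome, against 3.28% of all genes. There were 3 pairs of members that are direct neighbours in the annotation.

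The first pair was YALI0_B19008g, the metabolite symporter, and YALI0_B19030g, with 969 bases between them on chromosome B and transcribed toward each other. YALI0_B19030g, which has no annotation, had 104 and 108 before and 1429 and 1407 after with pO2 control, and 0.22 and 0.66 before and 896 and 862 after without it. The neighbours did not share a pattern, since YALI0_B19008g was low before limitation in both cultures. In the second pair, YALI0_D26389g and YALI0_D26411g on chromosome D, 3290 bases apart and on the same strand, the first had 156 and 139 before limitation with pO2 control and 145 and 162 without it. YALI0_D26411g, also unannotated, went from 0.63 and 2.18 to 420.2 and 436 with and from 0.66 and 0.32 to 23.8 and 23.7 without pO2 control. The third pair was YALI0_E08074g, the DcpS match, and YALI0_E08085g, 3004 bases apart on chromosome E. YALI0_E08085g, a gene of only 276 bases with no annotation, had 6.64 and 6.56 before and 912 and 922 after with pO2 control, and 141 and 115 before and 1364 and 1265 after without it. Before limitation its uncontrolled values were far above its controlled ones.

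The cultures were then compared after limitation. Of these values the rule used the lowest of the 4 libraries, for both the level and the ratio, whichever culture it came from. The rule bears on the shares below, because it chose genes that rose strongly in both cultures, unlike most of the genes tested. In this test, 14 of the 84 members were higher with pO2 control past the call (16.7%), against 1.82% of all genes tested, and 0 were higher without it, against 1.34%, by limma's adjusted p and the minimum log2 difference of 2. At an unadjusted p under 0.05, 20 members were higher without pO2 control, none of them by the minimum of 2. At an adjusted p under 0.05 alone, 45.2% of the members were higher with pO2 control, against 28.5% of all genes, and 22.6% higher without it, against 21.5%. Both controlled libraries were above both uncontrolled ones in 47 members (56%), against 45.8% of all genes tested, the reverse held in 27 (32.1%), against 33.8%, and the cultures overlapped in 10. The median log2 difference, uncontrolled minus controlled, was -0.23 over the members and -0.10 over all genes tested. Scaling by the median of ratios moved the median of all genes to 0.03 and that of the members to -0.11, and left 13 of the 14 calls.

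Of the 5 members with the largest differences after limitation, 3 are without annotation. YALI0_E33385g had 452 and 473 with and 31.6 and 15.97 without pO2 control, a log2 difference of -4.30 (SE 0.30, adjusted p = 0.00066). YALI0_D26411g, given above, had a log2 difference of -4.12 (SE 0.08, adjusted p = 3.7e-05). YALI0_E17435g had 283 and 307 with and 20.99 and 22.04 without pO2 control, a log2 difference of -3.72 (SE 0.09, adjusted p = 6.8e-05). In each of these 3 the uncontrolled libraries lay more than 10-fold below the controlled ones. YALI0_D00363g, the sugar symporter family gene, had a log2 difference of -3.26 (SE 0.28, adjusted p = 0.00092). YALI0_F19712g, the ADP/ATP carrier, had a log2 difference of -3.18 (SE 0.13, adjusted p = 0.00017).

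The other 9 members called in this direction included the oxidoreductase YALI0_B08052g, the thiamine enzyme YALI0_A09768g, the RNA-binding match YALI0_C19558g, elongation factor 2 YALI0_A20152g, the K08856 gene YALI0_A11605g, YALI0_D20196g, the Rab GTPase YALI0_C14168g the unannotated YALI0_E00704g, and YALI0_F19822g, for which GO gives only binding terms. Their log2 differences ran from -3.13 for YALI0_B08052g to -2.09 for YALI0_C14168g. YALI0_C14168g was at -1.96 under the median-of-ratios scaling and at -1.98 without the first uncontrolled replicate, just under the minimum of 2, and so was not called there. On the opposite side no member reached a log2 difference of 2. The nearest was YALI0_D02167g, the alkaline phosphatase D match, a log2 difference of 1.73 (SE 0.06, adjusted p = 0.00013), and after it came the unannotated YALI0_C17567g, a log2 difference of 1.67 (SE 0.19, adjusted p = 0.002).

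**Figure D4:**
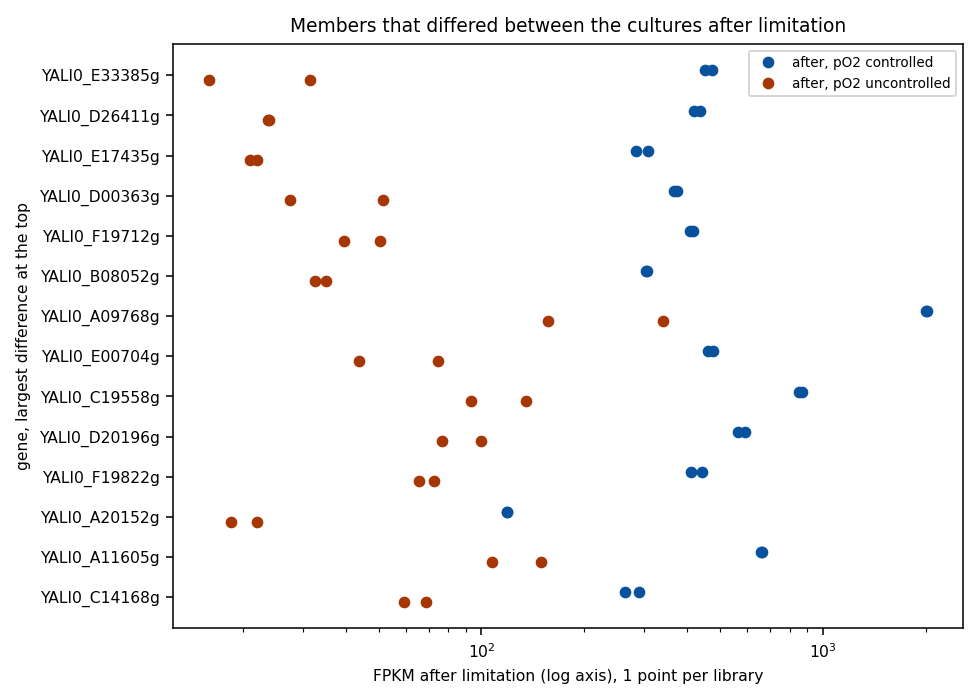
FPKM after limitation on a log axis for the 14 members called between the cultures, 2 libraries with pO2 control (blue) and 2 without it (brown) for each gene, largest difference at the top. In all 14 the controlled points lie to the right, and the replicates of YALI0_A09768g without pO2 control, 157 and 339, are farther apart than its controlled replicates.

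Before limitation, 81 of the 84 members had enough signal to be tested, and 14 were higher with pO2 control past the call (17.3%), against 14.4% of all genes tested. Only 1 was higher without it (1.23%), against 9.18% of all genes. At an adjusted p under 0.05 alone, 55.6% of the members tested were higher with pO2 control, against 47.2% of all genes, and 12.3% higher without it, against 30.9%. The share called higher with pO2 control was thus near the background, and the share called higher without it was below. The rule bears on this, because a gene with a high value in either culture before limitation had to reach 3 times that value in both cultures afterwards. The median log2 difference was -0.89 over the members and -0.31 over all genes. With the median-of-ratios scaling these became -0.58 and 0.04, and 10 members were higher with and 2 higher without pO2 control. Leaving out the first or the second controlled replicate lowered the count of 14 to 8 and 7, where in each case 6 of the called members were no longer tested, since they then reached an FPKM of 1 in a single library.

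YALI0_B19030g had 104 and 108 before limitation with pO2 control and at most 3 fragments in either library without it, and passed the call. Its log2 difference was -6.23 (SE 0.19, adjusted p = 3.2e-05) with 1 added to the FPKM and -7.75 with 0.1 added, so that its size is not fixed by these data. YALI0_A09768g had a log2 difference of -4.26 (SE 0.13, adjusted p = 3.2e-05), having 38.5 and 39.1 with and 1.08 and 1.07 without pO2 control. The thiamine enzyme gene was thus lower without pO2 control on both sides of limitation. YALI0_B21824g, the oxidoreductase, had a log2 difference of -4.01 (SE 0.30, adjusted p = 0.0003). YALI0_C00341g, unannotated, had 10.7 and 11.7 with and 0.66 and 0 without pO2 control, a log2 difference of -3.24 (SE 0.29, adjusted p = 0.00054). YALI0_C14168g, the Rab GTPase, had a log2 difference of -3.19 (SE 0.15, adjusted p = 7.6e-05). With 0.1 added to the FPKM, YALI0_A09768g was at -5.05, YALI0_B21824g at -6.15, YALI0_C00341g at -5.36 and YALI0_C14168g at -3.92. The sizes of these differences thus also depend on the value added. YALI0_E08085g was the member called the other way, a log2 difference of 4.08 (SE 0.14, adjusted p = 3.7e-05).

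Last, the size of the rise was compared between the cultures in a fit over all 8 libraries, in which a positive response difference means the larger rise without pO2 control. Of the 84 members, 11 had the larger rise without pO2 control past the call (13.1%), against 11.8% of all genes tested, and 7 had the larger rise with it (8.33%), against 6.85%. Both shares were near the background. The median response difference was 0.39 over the members and 0.20 over all genes, and 0.23 and -0.03 under the median-of-ratios scaling. With the FPKM as deposited, 50 members rose more without and 34 more with pO2 control, and the matching share over all genes was not counted. With 0.1 in place of 1 added to the FPKM the called members numbered 15 and 5, and 16 of the 18 calls were kept. Both that were lost, YALI0_B08052g (-0.87) and YALI0_E33385g (-1.76), had at most 3 fragments in uncontrolled before.

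The response difference of YALI0_B19030g was 5.54 (SE 0.20, adjusted p = 4.1e-07), and 7.06 with 0.1 added to the FPKM. The oxidoreductase YALI0_B21824g was at 4.35 (SE 0.38, adjusted p = 3.0e-05) and the peptide transporter YALI0_D23485g at 3.41 (SE 0.19, adjusted p = 3.3e-06). With 0.1 added to the FPKM, they were at 6.49 and 4.70. All 3 were close to silent before limitation without pO2 control and ended far above that level in both cultures. YALI0_C17567g, which has no annotation, went from 54.5 and 57.9 to 191 and 179.7 with and from 23.6 and 18.6 to 725 and 482 without pO2 control, a response difference of 3.05 (SE 0.27, adjusted p = 3.1e-05). YALI0_E02200g, also unannotated, went from 15.1 and 18.4 to 73.4 and 68.2 with and from 3.11 and 4.19 to 141 and 147 without it, a response difference of 2.95 (SE 0.22, adjusted p = 1.2e-05). In these the uncontrolled libraries started lower and ended higher.

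In the other direction, YALI0_E17435g had a response difference of -3.94 (SE 0.45, adjusted p = 0.00014), with 0 and 0.46 before limitation with pO2 control and 0.98 and 0 without it, so that the difference rests on the levels after it. YALI0_E08085g had a response difference of -3.56 (SE 0.15, adjusted p = 8.8e-07), and there the difference rests on the levels before limitation, since after it the gene had 912 and 922 with and 1364 and 1265 without pO2 control. YALI0_D26411g was at -3.49 (SE 0.41, adjusted p = 0.00015), YALI0_E33385g at -3.28 (SE 0.53, adjusted p = 0.00082) and the ADP/ATP carrier YALI0_F19712g at -2.77 (SE 0.23, adjusted p = 2.2e-05). With 0.1 added to the FPKM, YALI0_E17435g was at -4.25 and YALI0_D26411g at -2.97, and both kept the call. YALI0_E33385g had 1.05 and 2.3 before limitation with pO2 control and 0 and 0.65 without it. YALI0_D26411g, YALI0_E33385g and YALI0_F19712g were low before limitation in both cultures and lower without pO2 control after it.

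**Figure D5:**
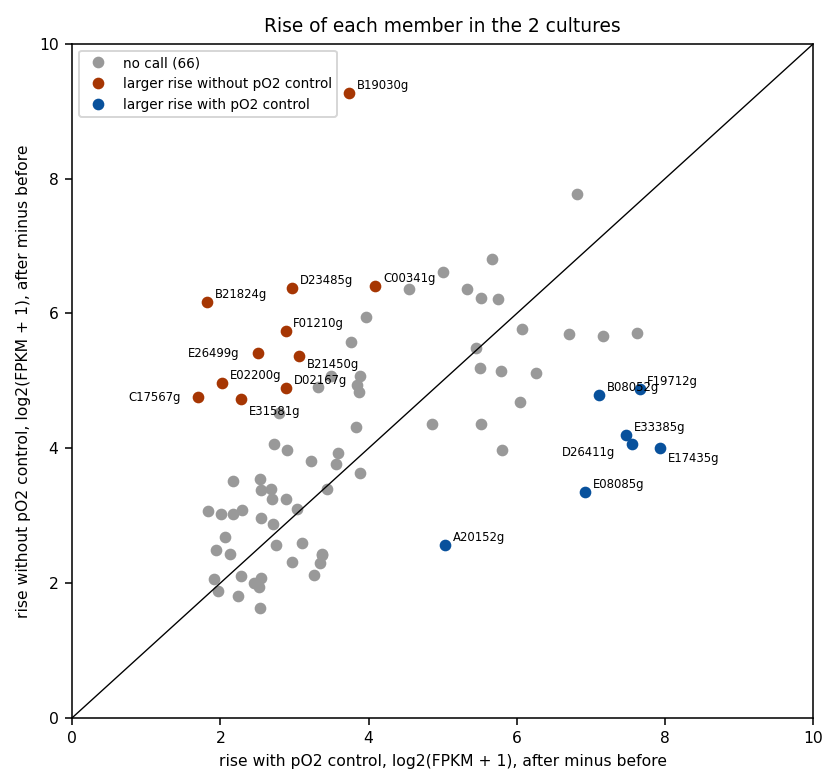
Rise of each of the 84 members on the log2(FPKM + 1) scale, after minus before, with pO2 control (x axis) and without it (y axis). Brown points are the 11 members with the larger rise without pO2 control, blue points the 7 with the larger rise with it, grey points the other 66, and the line marks an equal rise (locus tags are shown without YALI0_). YALI0_B19030g stands above the line at 9.27 and YALI0_E17435g lies far to the right at 7.94, values that depend on the 1 added because both had at most 3 fragments before limitation.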

How the data were processed

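RNA-seq libraries of *Y. lipolytica* ACA DC 50109 were compared in 4 groups of 2. The deposited FPKM values were made by the authors with TopHat2 and Cufflinks on the CLIB122 assembly, 1 value per gene and library without pooling. Columns with the authors' own fold changes and p-values were not used, and 0 value columns stayed unmapped. A gene missing from 1 of the 2 tables (31 genes) was set to 0 there. Depth was recovered from FPKM steps, of which 93.1% to 99.1% were whole within 0.08 fragments, and it was used only for the floor of 3 fragments.

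Tests were run with limma 3.58.1 in R 4.3.3 on log2(FPKM + 1), with an empirical Bayes trend and no replicate block, keeping genes that reached an FPKM of 1 in 2 or more libraries of the fit. P-values were adjusted by Benjamini-Hochberg over all genes tested, and a call needed an adjusted p under 0.05 and a log2 difference of at least 2 in size. Fold changes on this scale understate the change of low genes. Fits between 2 groups had 2 residual degrees of freedom and the response difference over 8 libraries had 4. No permutation of 2 against 2 libraries can give a two-sided p under 0.333. The script was tested on simulated data. Python 3.11.15 (pandas 2.3.3, numpy 2.4.6, matplotlib 3.10.9) was used for summaries and plots.

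Members, the 25 gene lists and the tests were chosen with earlier results of these data known. Lists used KEGG names with an e-value of at most 1e-10 or GO terms. The list for alternative respiration matched 0 genes. The rule for named genes took the 10 members with the highest mean FPKM after limitation, the 10 with the largest ratio, members in a list, the 5 called members with the largest change in each direction of each test, those at the edge of the rule, direct neighbours, and the list genes with the largest changes, not all of which are given. Other members were named by their annotation, and non-members that share a KEGG number, after their values were seen. Alternatives tried were other thresholds of the rule, a replicate block, a pseudocount of 0.1, other filters, median-of-ratios scaling, a fit on all 8 libraries, other minimums of the log2 difference, and leaving out each library. Sequences were not used here.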

Additional observations from a re-analysis of the deposited data

Results flagged for a closer look

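The rise after limitation differed between the cultures, by the response difference in limma's fit over all 8 libraries with an adjusted p under 0.05 and a size of at least 2, in 18 members. The values are log2 response differences, positive for the larger rise without pO2 control. Larger rises without pO2 control were found for YALI0_B19030g (5.54), the oxidoreductase YALI0_B21824g (4.35), the peptide transporter YALI0_D23485g (3.41), YALI0_C17567g (3.05), YALI0_E02200g (2.95), YALI0_E26499g (2.90), the aquaporin YALI0_F01210g (2.87), the sphingomyelin phosphodiesterase match YALI0_E31581g (2.45), YALI0_C00341g (2.32), YALI0_B21450g (2.31) and the alkaline phosphatase D match YALI0_D02167g (2.01). Larger rises with pO2 control were found for YALI0_E17435g (-3.94), YALI0_E08085g (-3.56), YALI0_D26411g (-3.49), YALI0_E33385g (-3.28), the ADP/ATP carrier YALI0_F19712g (-2.77), elongation factor 2 YALI0_A20152g (-2.46) and the oxidoreductase YALI0_B08052g (-2.33). Under the median-of-ratios scaling YALI0_D02167g was at 1.78 and no longer called, and with a pseudocount of 0.1 YALI0_B08052g was at -0.87 and YALI0_E33385g at -1.76. The same pseudocount put YALI0_B21824g at 6.49, YALI0_D23485g at 4.70 and YALI0_C00341g at 4.43, so these sizes depend on the value added. Leaving out the second uncontrolled replicate before limitation put YALI0_D02167g at 1.61, YALI0_B21450g at 1.84 and YALI0_C00341g at 1.96, and leaving out the first put YALI0_A20152g at -1.89 and YALI0_B08052g at -1.99, all under the size of 2. YALI0_D02167g was also under it at 1.88 without the second controlled replicate before limitation and at 1.99 without the first one after it. The shares of members so called, 13.1% and 8.33%, stood beside 11.8% and 6.85% of all genes tested. With groups of 2 libraries no sample could be set apart as an outlier.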

How the results depend on the processing

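With a ratio of at least 2 the rule gave 246 genes and with at least 5 it gave 38, and leaving out 1 library gave 85 to 107. By the form of the rule, leaving out a library can only keep or raise this count, so that direction was fixed in advance. After limitation, members higher without and with pO2 control numbered 8 and 22 at a minimum log2 difference of 1 and 19 and 38 by adjusted p alone. Before limitation they numbered 5 and 35 and, by adjusted p alone, 10 and 45, and the median-of-ratios scaling gave 2 members higher without pO2 control. Larger rises without and with pO2 control numbered 27 and 15 at a minimum of 1 and 32 and 23 by adjusted p alone. Leaving out 1 library gave 0 and 13 to 14 members after limitation, 1 and 7 to 16 before it, and 9 to 14 and 5 to 8 for the response difference. Before limitation, the count of 14 members higher with pO2 control was 8 without the first and 7 without the second controlled replicate, with 6 called members no longer tested in each. Same-numbered replicates did not deviate together (correlations of -0.05 to 0.04), so the numbers were not taken as pairs. The replicate block gave 14 members higher with pO2 control after limitation and 14 before it, 11 and 7 for the response difference, and changed no call of a member. No value of a called member reversed under an alternative, and 18 of 47 calls were lost under at least 1 other fit, 13 of them by a size under 2 and the others only because the gene was no longer tested. Of 100 list counts each, 69 moved up by over 1.5 times at a minimum of 1, 5 with the pseudocount of 0.1 and 7 with the scaling, where 6 moved down. Beyond the members no longer tested, the cause was not tested.

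With 2 libraries a group, differences under a log2 value of 2 were not called, and values at or under 3 fragments limit the 9 members that were nearly silent before limitation without pO2 control. The scaling shifted the median of all genes from -0.31 to 0.04 before limitation and from 0.20 to -0.03 for the response difference.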
